A study of Citrus sinensis with 6 samples.

Results

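The 6 genes described here belong to the phenylpropanoid pathway of sweet orange (Citrus sinensis) and to its lignin and flavonoid branches. They were taken by gene name from a list, as 6 of the 31688 genes in the transcript tables. C4H1 and C4H2 stand for the shared entry step and CAD for the lignin branch. CHI, LOC102617426 and LOC102577958 stand for the flavonoid branch. The reference gene table gives LOC102617426 the synonym CitF3H and LOC102577958 the synonym ANS, and these shorter names are used from here on. Product names are not part of the files, so each gene's role is taken from its symbol or synonym. CHI is the symbol most open to another reading, since the same letters are also used for chitinase.

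RNA came from excised albedo, the white inner layer of the orange peel, which was sampled 3 days after the fruit had been inoculated. The antagonist yeast Rhodotorula mucilaginosa was combined with salicylic acid at 0.2 mM, a hormone of plant defence, in 3 libraries. The other 3 libraries received the same yeast alone, so both groups carry the yeast and no untreated fruit enters the comparison. The series asked how defence genes of the fruit respond to the yeast when salicylic acid is added. The labels name neither the agent of the inoculation nor the orange cultivar, and they do not say whether the libraries come from separate fruit. The p-values therefore cover no more than the variation among these libraries, part or all of which may be technical.

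Phenylpropanoid synthesis starts from phenylalanine, which is turned into cinnamic acid. Cinnamate hydroxylase (C4H) then adds a hydroxyl group to give coumaric acid, from which the main branches divide. On the way to lignin, cinnamyl alcohol dehydrogenase (CAD) reduces aldehydes to the alcohols that are joined into the polymer of the cell wall. On the way to flavonoids, chalcone synthase (CHS) builds a chalcone and chalcone isomerase (CHI) closes it into a flavanone. Flavanone hydroxylase (F3H) turns flavanones into dihydroflavonols, and anthocyanidin synthase (ANS) acts late, on the way to anthocyanins. Citrus albedo is known for a high content of flavanone glycosides, which leave the path before the F3H step. Lignin and phenolic compounds are known as barriers in citrus peel wounds.

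In these libraries the entry and lignin genes stood at high levels, with group means in ratios of 0.915 (C4H2), 1.02 (CAD) and 1.18 (C4H1), while the flavonoid genes stood low and CitF3H had a lower mean with salicylic acid added. CitF3H averaged 3.24 ± 0.923 FPKM with yeast and salicylic acid and 6.06 ± 1.10 FPKM with yeast alone (SD, n = 3 each). ANS averaged 0.637 ± 0.593 FPKM with yeast and salicylic acid and 1.48 ± 0.654 FPKM with yeast alone (SD, n = 3 each). CHI, in the same branch, had the higher mean with salicylic acid, 1.26 ± 0.585 FPKM against 1.03 ± 0.351 FPKM (SD, n = 3 each). The groups overlapped for ANS and for CHI. FPKM scales fragments to transcript length and to library size, so it can be compared between genes of different length. None of the 6 genes passed the threshold, which was an adjusted p of 0.05 in limma across the 17355 genes with a mean of at least 1 FPKM. The share of all tested genes that passed was 0.00576%, a single gene.

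All 6 genes entered the test. CHI and ANS did so narrowly, with means of 1.14 and 1.06 FPKM over the 6 libraries, and ANS did so through the libraries with yeast alone, where its mean was higher, so its lower direction is tied to the filter. By the sign of the mean log2(FPKM + 1) difference, 3 genes were higher with salicylic acid (C4H1, CAD and CHI) and 3 lower (C4H2, CitF3H and ANS). Their median difference was -0.044, against 0.020 over all tested genes. At an unadjusted p under 0.05 there was 1 of the 6, CitF3H, against 5.23% of all tested genes. The libraries of the groups did not overlap in 1 of the 6, again CitF3H, against 10.2% of all tested genes in either direction and 4.56% in the lower direction.

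The order of levels was the same in 6 of 6 libraries down to the flavonoid genes. C4H2 was the highest, followed by CAD, C4H1 and CitF3H, with CHI and ANS below them. Taken over the 6 libraries, mean FPKM of C4H2 was 2.35 times that of CAD, CAD 3.98 times C4H1, and C4H1 6.30 times CitF3H. No library of one of these 4 genes reached the range of its neighbour. CHI and ANS could not be ordered. CHI was above ANS in 2 of 3 libraries with salicylic acid and in 1 of 3 with yeast alone. In their mean level, C4H2 exceeded 97.2% of the tested genes, CAD 93.2% and C4H1 74.4%. CitF3H exceeded 30.4%, CHI 2.49% and ANS 1.09%.

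**Figure D1:**
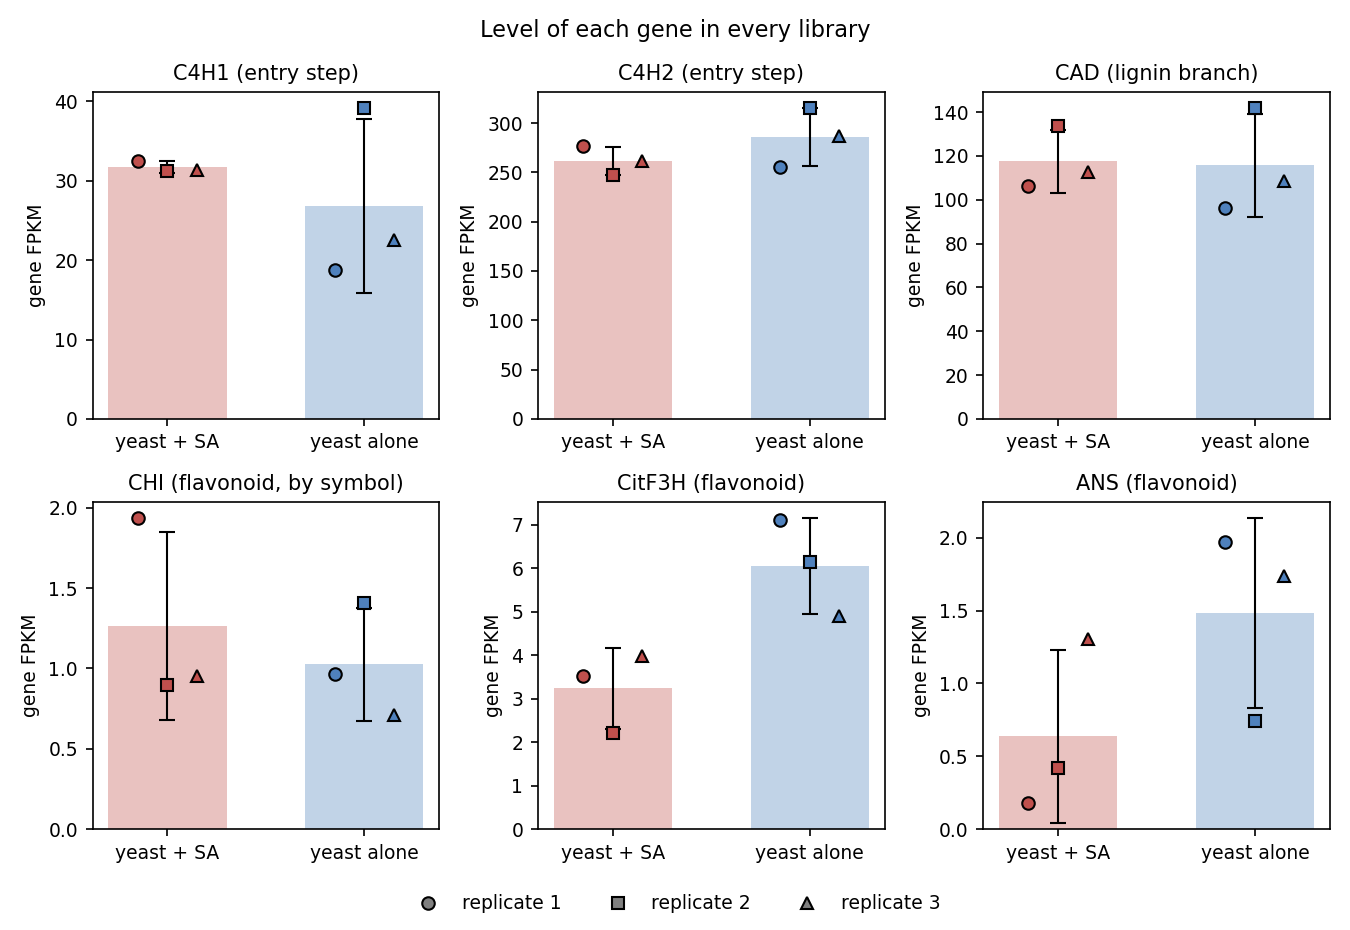
FPKM of each of the 6 genes (vertical axes, each starting at 0) in the 3 libraries with yeast and salicylic acid (yeast + SA, red) and the 3 with yeast alone (blue). Bars are group means, error bars are SD and symbols are replicates. Only for CitF3H do all red points, up to 3.98 FPKM, lie below all blue points, from 4.91 FPKM.

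C4H2 is the more abundant of the pair of cinnamate hydroxylase genes. Its single transcript of 1643 bases in 3 exons lies on the minus strand of NC_023046.1 from 9393444 to 9397568 (no source used here names the genome build). C4H2 stood at 276, 247 and 261 FPKM in replicates 1 to 3 of yeast plus salicylic acid, against 256, 315 and 287 FPKM in replicates 1 to 3 of yeast alone. The groups overlapped, and the highest value was replicate 2 of yeast alone. The log2(FPKM + 1) difference was -0.12 (SE 0.13, 95% interval -0.43 to 0.18, adjusted p = 0.978 in limma). C4H2 was the steadiest of the 6 genes. Its log2(FPKM + 1) values spanned 0.35 over the libraries, and only 15.7% of tested genes had a smaller span.

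C4H1 encodes a further enzyme of the same step. Its transcript of 1685 bases in 2 exons lies on the minus strand of NC_023049.1 from 2658470 to 2660297. C4H1 stood at 32.5, 31.3 and 31.4 FPKM in replicates 1 to 3 of yeast plus salicylic acid, against 18.8, 39.2 and 22.5 FPKM in replicates 1 to 3 of yeast alone. The libraries with salicylic acid lay within a narrow band inside the range of the libraries with yeast alone. The SD was 0.700 FPKM with salicylic acid and 10.9 FPKM with yeast alone (n = 3 each), a difference in spread that was not tested. The log2(FPKM + 1) difference was 0.30 (SE 0.24, 95% interval -0.24 to 0.84, adjusted p = 0.975 in limma). Its size rested on the libraries with yeast alone. It was 0.60 without replicate 2 of that group and 0.091 without replicate 1.

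Levels of C4H1 and C4H2 did not keep a fixed ratio. FPKM of C4H2 was 8.49, 7.90 and 8.32 times that of C4H1 in replicates 1 to 3 with yeast and salicylic acid, and 13.6, 8.04 and 12.8 times in replicates 1 to 3 with yeast alone. Replicate 2 of yeast alone lay among the libraries with salicylic acid, and the other two were above them. The ratio averaged 8.24 ± 0.303 with salicylic acid and 11.5 ± 3.01 with yeast alone (SD, n = 3 each). No source used here says how reads that match both genes were assigned.

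CAD, the lignin branch gene, has a transcript of 1234 bases in 5 exons on the plus strand of NC_023053.1 from 2743298 to 2745439. CAD stood at 106, 134 and 113 FPKM in replicates 1 to 3 of yeast plus salicylic acid, against 96.3, 142 and 109 FPKM in replicates 1 to 3 of yeast alone. The range with salicylic acid lay inside the wider range with yeast alone, and in each group the highest library was replicate 2. The log2(FPKM + 1) difference was 0.036 (SE 0.17, 95% interval -0.35 to 0.42, adjusted p = 0.996 in limma). It had no stable direction, being -0.060 without replicate 2 of yeast and salicylic acid and -0.085 without replicate 1 of yeast alone.

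CitF3H, at the flavanone hydroxylase step, has a transcript of 1343 bases in 3 exons on the minus strand of NC_023046.1 from 27435503 to 27438152. CitF3H stood at 3.53, 2.20 and 3.98 FPKM in replicates 1 to 3 of yeast plus salicylic acid, against 7.11, 6.15 and 4.91 FPKM in replicates 1 to 3 of yeast alone. Every library with salicylic acid lay below every library with yeast alone, and the ratio of the means was 0.534. The log2(FPKM + 1) difference was -0.75 (SE 0.22, 95% interval -1.25 to -0.25). CitF3H ranked 157 of 17355 by its p in limma, 0.00782 before adjustment, and its adjusted p was 0.855. An exact permutation test over the 6 libraries gave p = 0.1 (two-sided), the smallest p that 3 against 3 can give. With any 1 library left out the difference stayed between -0.88 and -0.56, and it did not pass. The mean with salicylic acid was between 2.87 and 3.75 FPKM with 1 of its libraries left out, and that with yeast alone between 5.53 and 6.63 FPKM with 1 of its own left out.

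ANS has 2 annotated transcripts of 1333 and 1074 bases, both of 2 exons on the minus strand of NC_023050.1. The longer runs from 6859411 to 6860860 and the shorter lies inside it, from 6859555 to 6860733. Summed over both, ANS stood at 0.180, 0.423 and 1.31 FPKM in replicates 1 to 3 of yeast plus salicylic acid, against 1.97, 0.739 and 1.74 FPKM in replicates 1 to 3 of yeast alone. The groups overlapped, since replicate 3 with salicylic acid lay above replicate 2 of yeast alone. The log2(FPKM + 1) difference was -0.62 (SE 0.31, 95% interval -1.33 to 0.086, adjusted p = 0.960 in limma). The exact permutation test gave p = 0.2 (two-sided). Dropping the filter on low values cannot change the difference, since other genes do not enter it, so this is no check on the filter. The adjusted p without the filter was 0.943 in limma. The size of the difference depended on the scale and on which libraries were kept. The difference was -0.42 without replicate 1 of yeast and salicylic acid and -0.90 without replicate 3 of that group. Without replicate 2 of yeast alone it was -0.86. It was -1.32 with a pseudocount of 0.1 and -1.27 in the deposited gene table, and the mean with salicylic acid was 0.301 FPKM without replicate 3 of that group.

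The values of ANS rested on little sequence. Coverage summed along its transcripts came to 1200, 2400 and 6857 bases in replicates 1 to 3 with yeast and salicylic acid, and to 9146, 3899 and 8694 bases in replicates 1 to 3 with yeast alone. For CitF3H the same sum was 15505 to 25561 bases with yeast and salicylic acid and 30359 to 40271 bases with yeast alone. The smallest sum in a single library was thus that of ANS, while CHI had the smaller total over the 6 libraries, 30099 bases against 32196 for ANS. The span of log2(FPKM + 1) values of ANS, 1.33, was close to the 1.34 of CitF3H. Those spans were wider than in 93.1% and 93.2% of the tested genes. In FPKM itself the genes differed more, because adding 1 narrows the span of low values. The highest library stood at 10.9 times the lowest for ANS and at 3.22 times for CitF3H.

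The split of ANS into its transcripts also varied. The shorter transcript carried 0%, 96.1% and 90.9% of the gene's FPKM in replicates 1 to 3 with yeast and salicylic acid, and 78.5%, 96.6% and 95.4% in replicates 1 to 3 with yeast alone. Only in replicate 1 with salicylic acid, the library with the least ANS sequence, was the shorter transcript listed at 0. Neither transcript reached a mean of 1 FPKM, at 0.141 FPKM for the longer and 0.919 FPKM for the shorter, so neither entered the test of single transcripts. Of 26605 transcripts tested, 0.0338% passed in limma. The other 5 genes have 1 transcript each, and none of the 5 passed there either, with adjusted p-values of 0.928 to 0.989.

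CHI, by its symbol the isomerase that makes flavanones, has a transcript of 912 bases in 4 exons on the minus strand of NC_023052.1 from 28758329 to 28760693. CHI stood at 1.94, 0.894 and 0.954 FPKM in replicates 1 to 3 of yeast plus salicylic acid, against 0.964, 1.40 and 0.710 FPKM in replicates 1 to 3 of yeast alone. The groups overlapped, and the highest library was replicate 1 with salicylic acid. The log2(FPKM + 1) difference was 0.14 (SE 0.25, 95% interval -0.42 to 0.70, adjusted p = 0.988 in limma). The mean with salicylic acid, 1.26 FPKM, was 0.924 FPKM without replicate 1, which is below the 1.03 FPKM of yeast alone. Its summed coverage was 4160 to 8835 bases with yeast and salicylic acid and 2978 to 6239 bases with yeast alone.

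**Figure D2:**
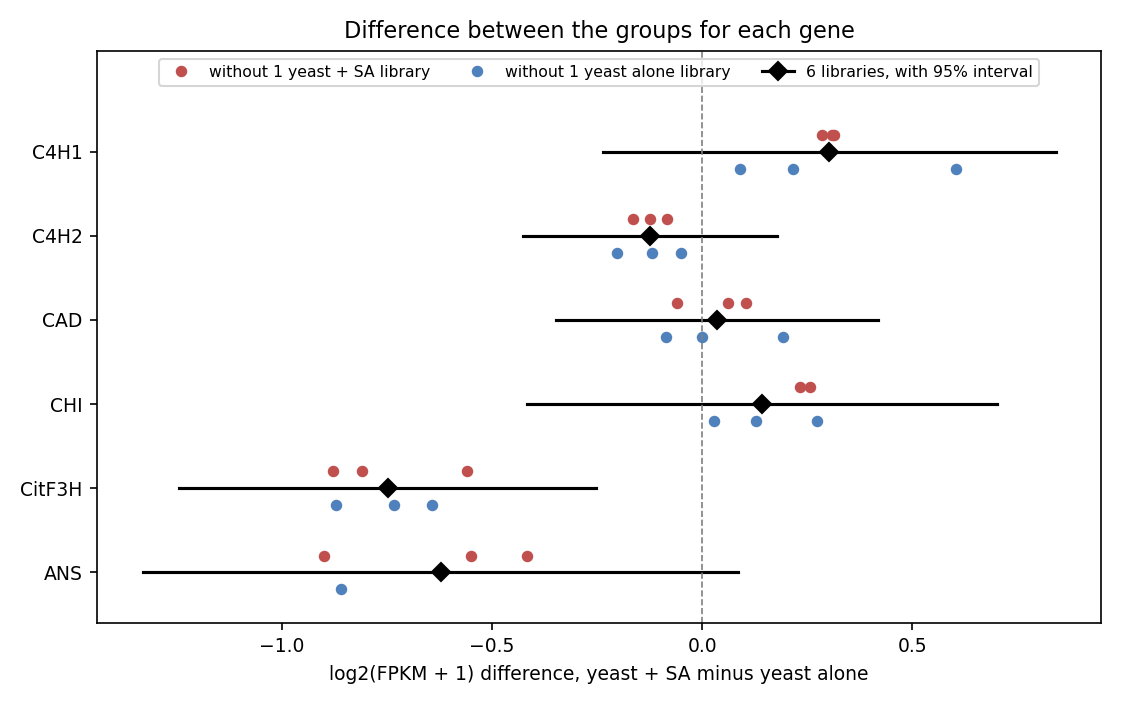
Difference in log2(FPKM + 1), yeast and salicylic acid (yeast + SA) minus yeast alone, for the 6 genes (horizontal axis, negative is lower with salicylic acid). Diamonds with lines are the values from 6 libraries with 95% intervals from limma, red points leave out 1 library with salicylic acid and blue points 1 with yeast alone; points are missing where the gene's mean was then under 1 FPKM. The interval of CitF3H, -1.25 to -0.25, is the one that does not reach 0, and its adjusted p over all genes was 0.855.

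Of the other genes of the pathway, the names in the files and in the reference gene table yielded 1, chalcone synthase CHS2 (LOC102607309), which makes the chalcone that CHI acts on. No gene carried a name for phenylalanine ammonia-lyase, coumarate CoA ligase, cinnamoyl CoA reductase, flavonol synthase or dihydroflavonol reductase, so those steps were not analysed here. CHS2 stood at 0.297, 0.0810 and 0.176 FPKM in replicates 1 to 3 of yeast plus salicylic acid, against 0.615, 0.0435 and 0.129 FPKM in replicates 1 to 3 of yeast alone. It lay below every flavonoid gene above in mean level, the groups overlapped, and it was not tested because its mean did not reach 1 FPKM. The pathway list thus held 7 genes, of which 6 were tested and 0 passed in limma (1 at an unadjusted p under 0.05).

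The branches were then set against the entry step within each library. Summed FPKM of CHI, CitF3H and ANS came to 1.83%, 1.27% and 2.13% of the summed FPKM of C4H1 and C4H2 in replicates 1 to 3 with yeast and salicylic acid, and to 3.66%, 2.34% and 2.38% in replicates 1 to 3 with yeast alone. The means were 1.74% ± 0.440 with salicylic acid and 2.79% ± 0.750 with yeast alone (SD, n = 3 each). The groups did not overlap, but CitF3H alone made up 62.5% to 63.8% of the flavonoid sum with salicylic acid and 66.7% to 74.2% with yeast alone, so this ratio largely repeats the values of CitF3H and was not tested. CAD came to 34.4%, 48.1% and 38.5% of the entry genes in replicates 1 to 3 with yeast and salicylic acid, and to 35.1%, 40.1% and 35.1% in replicates 1 to 3 with yeast alone. Here the groups overlapped, with means of 40.3% ± 7.03 with salicylic acid and 36.8% ± 2.87 with yeast alone (SD, n = 3 each). Within the flavonoid branch, ANS stood at 5.10% to 32.8% of the FPKM of CitF3H with salicylic acid and at 12.0% to 35.4% with yeast alone.

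**Figure D3:**
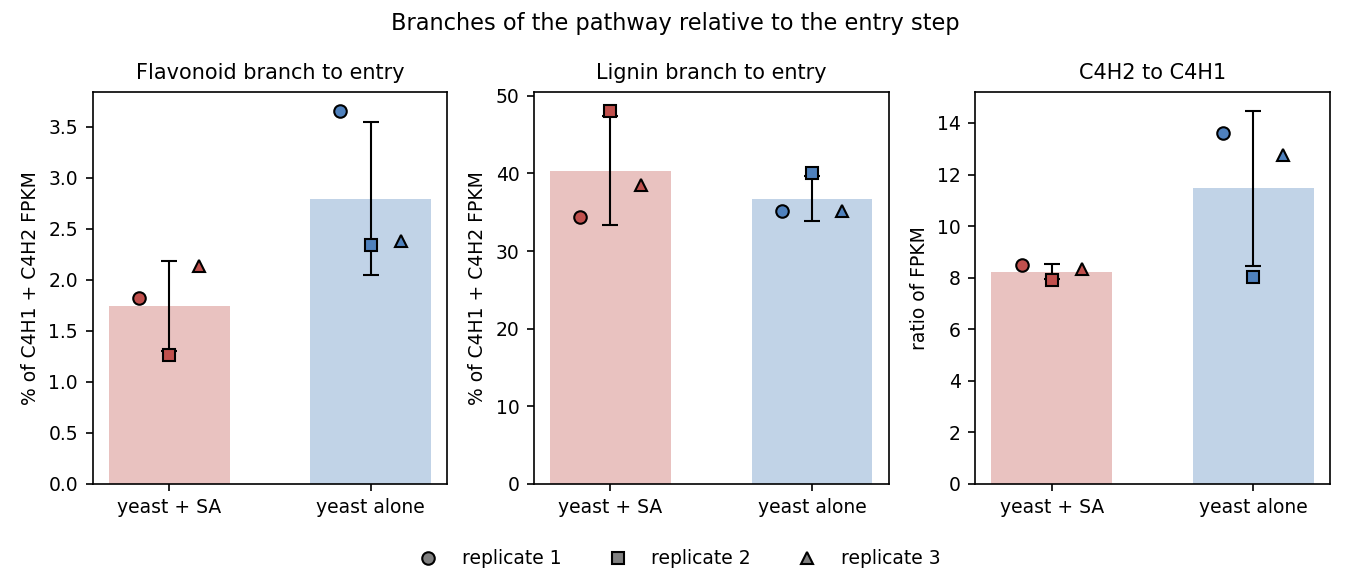
Ratios of FPKM within each library, with yeast and salicylic acid (yeast + SA, red) and yeast alone (blue). The panels show the summed flavonoid genes and CAD as a percent of C4H1 plus C4H2, and C4H2 divided by C4H1; bars are means, error bars SD and symbols replicates. Flavonoid ratios of 1.27% to 2.13% with salicylic acid lie below the 2.34% to 3.66% of yeast alone, while the CAD ratios overlap. CitF3H alone made up 62.5% to 74.2% of the flavonoid sum, so this ratio largely repeats its values and was not tested.

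Across libraries the entry and lignin genes shared their highest library, but not all of them shared their lowest. C4H1, C4H2 and CAD were each highest in replicate 2 of yeast alone, and C4H1 and CAD were each lowest in replicate 1 of yeast alone. That same replicate 1 held the highest values of CitF3H, ANS and CHS2. Replicate 1 of yeast alone was also the shallowest library, with an estimated depth of 4.11 gigabases, against 4.60 to 5.24 gigabases in the other 5. The lowest values of CitF3H and C4H2 were in replicate 2 with salicylic acid, the deepest library. The part that depth has in these values was not tested.

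Profiles over the 6 libraries were compared by the mean absolute difference of log2(FPKM + 1) values, each gene centred on its own mean. Among the 6 genes the nearest pairs were C4H2 with CHI, 0.15 apart, and C4H2 with CAD, 0.16 apart. CitF3H and ANS were 0.35 apart, and ANS stood farthest from C4H1, at 0.70. Among the 104 other tested genes with a symbol or synonym, the nearest to CitF3H were EREBP and DHN, each 0.22 apart. The nearest to ANS were PMEI/InvI (LOC102624882), 0.31 apart, and AP1, 0.32 apart. HSP90 was nearest to CAD at 0.065 and the gene with the synonym chitinase (LOC102627878) nearest to C4H1 at 0.13. This measure favours genes that vary little, and it is a description of 6 libraries. It also narrows the profile of low genes such as CHI. The highest library of CHI stood at 2.73 times its lowest in FPKM, against 1.28 times for C4H2.

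**Figure D4:**
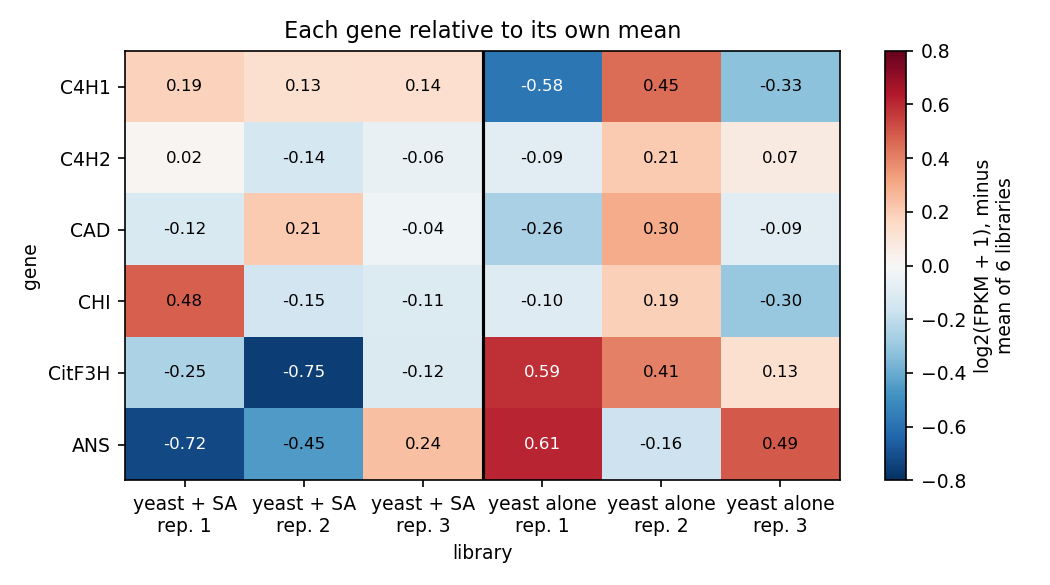
Each gene's log2(FPKM + 1) minus its mean over the 6 libraries (colour and printed value; red above, blue below the mean), by gene (rows) and library (columns), with yeast and salicylic acid (yeast + SA) left of the line and yeast alone right of it. CitF3H is below its mean in all 3 libraries with salicylic acid and above it in all 3 with yeast alone; C4H1 is 0.13 to 0.19 above its mean with salicylic acid and -0.58 to 0.45 with yeast alone.

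No marker of albedo cells was fixed, and no nuclear gene in the files carried a symbol of a chlorophyll-binding protein or of the small Rubisco subunit. As a sign of green tissue, genes of the chloroplast genome took 0.0301% to 0.0992% of summed coverage with yeast and salicylic acid. With yeast alone they took 0.0487% to 0.109%, and these ranges overlap. Of the nuclear photosystem I genes, PSAE stood at 5.97, 4.52 and 3.41 FPKM in replicates 1 to 3 with yeast and salicylic acid and at 7.38, 5.09 and 2.67 FPKM in those with yeast alone. PSADB ranged from 1.01 to 2.30 FPKM with yeast and salicylic acid and from 0.632 to 2.98 FPKM with yeast alone, and PSADA was below 1 FPKM in every library. PSAE and PSADB were highest in replicate 1 of yeast alone, the library that also held the highest CitF3H and ANS. PSADA was instead highest in replicate 3 with salicylic acid, at 0.492 FPKM. The chloroplast share was 0.0689% in replicate 1 of yeast alone. It was higher in replicate 3 of yeast alone, 0.109%, and in replicate 1 with salicylic acid, 0.0992%, the library with the lowest ANS. The part of green tissue in the levels of the 6 genes was not tested. In bulk tissue, fewer cells that express a gene cannot be told apart from less RNA per cell. Between 17017 and 17586 genes reached 1 FPKM in a library.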

How the data were processed

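Total RNA from 6 albedo libraries was sequenced on an Illumina HiSeq instrument, per the labels' protocols. No source used here names the aligner, the assembler or the genome build. The deposited table of each library lists 59106 transcripts with FPKM and mean coverage per base; this coverage is a signal without normalization, per the file headers. The deposited gene table holds a score in a unit of its own. Summed FPKM times transcript length divided by it was constant within 0.1% over libraries in 89.7% of 20874 genes, but the divisor is not the gene's length (107 for ANS), so it served only as an alternative.

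Transcript FPKM was summed by gene name. Log2(FPKM + 1) was tested with limma 3.58.1 in R 4.3.3 (files read with data.table, version 1.17.8), two-sided with a mean-variance trend, for features with a mean of at least 1 FPKM, and adjusted by the Benjamini-Hochberg method over all of them. Differences on this scale understate the change of low genes. Exact permutation tests used SciPy 1.17.1 in Python 3.11.15, and figures matplotlib 3.10.9. Depth was estimated as the median ratio of coverage to FPKM over transcripts that were not low. Names come from the files and from the RefSeq gene table (assembly DVS_A1.0), which matched 23518 of 31688 identifiers and gave no coordinates used here.

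The members and the pathway list were chosen with earlier results of these data known. All 6 genes are described in full, with the nearest 2 named genes of each by profile where shown. Alternatives were the pseudocount, the filter, scaling, annotated transcripts alone, the deposited gene table, the trend, a block by replicate number and leaving out each library.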

Additional observations from a re-analysis of the deposited data

How the results depend on the processing

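Over all alternatives, 82 of 84 log2(FPKM + 1) differences of the 6 genes kept their direction and did not pass, and 65 of 67 of their transcripts did. The exceptions were CAD and its transcript, whose difference ranged from -0.085 to 0.19 with 1 library left out (-0.060 without replicate 2 of yeast and salicylic acid). The filter, annotated transcripts alone, the trend and the replicate block cannot change the difference of these genes, only its p. Those alternatives are therefore no check on direction. Each tested transcript is the only one of its gene, so the transcript count largely repeats the gene count. CitF3H ranged from -0.91 (pseudocount of 0.1) to -0.56, and its lowest adjusted p in limma was 0.602, with the replicate block. ANS ranged from -1.32 (pseudocount of 0.1) to -0.42. Some alternatives gave no value, since the gene then missed the filter. These were ANS without replicate 1 or replicate 3 of yeast alone, and CHI without replicate 1 of yeast and salicylic acid. CitF3H, CHI and ANS also gave none at a mean of at least 5 FPKM. For CHI the counts of kept directions thus leave out a case that goes the other way. Without replicate 1 of yeast and salicylic acid, its mean in that group was 0.924 FPKM, below the 1.03 FPKM of yeast alone. In the deposited gene table, whose unit differs, CitF3H was at -0.82 and ANS at -1.27.

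Among all genes, 1 passed. It was 2 with a pseudocount of 0.1, with the replicate block or with no mean-variance trend, 0 with annotated transcripts alone (limma, 806 at an unadjusted p under 0.05), and 1 to 5 with 1 library left out. Among transcripts 9 passed, with 5 for a pseudocount of 0.1 or no filter, 4 for a mean of at least 5 FPKM or annotated transcripts alone, 18 with no mean-variance trend, and from 2 up to 19 after leaving out 1 library. The replicate block left 0 transcripts past the threshold (limma; 1475 had an unadjusted p under 0.05). The causes were not tested. The block changed no call of the 6 genes. The labels do not say that equal replicate numbers pair the samples, so the main test had no block. Deviations of libraries with equal numbers correlated at 0.114, 0.188 and -0.009, and those with unequal numbers at -0.248 to 0.140. With so few libraries these values cannot decide whether the samples are paired. ANS and CHI rest on as few as 1200 and 2978 bases of summed coverage in a library.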
